A study of Mus musculus with 8 samples.

Results

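Liver zonation was read in 10 genes that mark opposite ends of the liver lobule, of 49671 genes in the table. The 6 pericentral genes were Glul, Cyp2e1, Cyp1a2, Oat, Slc1a2 and Axin2, and the 4 periportal genes were Gls2, Hal, Sds and Cdh1. They were chosen by name as markers of a zone, with no threshold on their values. All 10 were among the 13117 genes tested, with no less than 1 CPM (a count scaled to the library total, in parts per 1000000) in at least 2 libraries. For the CPM values given below, the total was instead that of the tested genes, times the TMM scaling factor of the library. On GRCm38, the plus strand carries Glul at chr1:153899944-153909723, Cyp2e1 at chr7:140763739-140774987, Slc1a2 at chr2:102658659-102790784, Axin2 at chr11:108920349-108950783, Gls2 at chr10:128194457-128210004, Hal at chr10:93488768-93519304, Sds at chr5:120476526-120483932 and Cdh1 at chr8:106603351-106670246. The minus strand carries Cyp1a2 at chr9:57676937-57683703 and Oat at chr7:132557478-132576398. RNA-seq was made from livers of post weaning mice, labelled C57BL/6. Each sex was represented by 2 WT and 2 NT-KO libraries. NT-KO mice were homozygous for a CRISPR/Cas9 deletion in Lbr that removes the first translation start of the lamin B receptor, a protein of the inner nuclear membrane. The deletion is in the germline, hence in every liver cell type, and descends from a single founder male backcrossed to C57BL/6N. WT mice carried no Lbr deletion, and the labels name no treatment for any group.

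Blood enters the liver lobule at the portal tract and leaves at the central vein, and hepatocytes along this path express different enzymes. Wnt ligands and R-spondin from central vein endothelium activate beta-catenin in nearby hepatocytes, which maintains the pericentral programme of glutamine synthesis and drug oxidation. Periportal hepatocytes carry out gluconeogenesis, urea synthesis and amino acid breakdown. A whole-liver library averages over the lobule, so fewer hepatocytes of a zone and less RNA per hepatocyte cannot be told apart in these data.

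The libraries held 45020377 to 64396291 counts, and the common variation between replicates was 21.7% of a gene's level. The labelled tissue was checked by 8 hepatocyte marker genes, all detected, which summed to between 83683 and 119994 CPM. Lbr stood at 8.66 and 7.08 CPM in male WT livers, with 13.8 and 14.7 CPM in male NT-KO livers. In females it stood at 8.04 and 7.54 CPM in WT livers, with 14.1 and 15.2 CPM in NT-KO livers. Lbr RNA was thus higher in all 4 NT-KO libraries than in any WT library, but a count over the whole gene does not measure the deleted stretch. Nothing in the labels says whether replicates shared a litter, so p-values measure only the spread between these libraries.

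The promoters of the members were searched for CTTTGA, the core recognised by TCF and LEF, the DNA-binding partners of beta-catenin. RefSeq promoters (GRCm38.p6, 250 bases before to 50 bases after the start) were matched for 7 of the 10 members. Gls2, Sds and Cdh1 were not matched. The 3 below that hold the core (in capitals, written TCAAAG where it lies on the opposite strand) are shown beside Glul, the classical pericentral marker, which does not hold it. The Slc1a2 promoter lies on the plus strand at chr2:102706188-102706487, inside the annotated gene, the Cyp2e1 promoter on the plus strand at chr7:140763569-140763868, the Hal promoter on the plus strand at chr10:93488518-93488817 and the Glul promoter on the plus strand at chr1:153899679-153899978. In the Hal promoter the capitals also mark GCGTG, the core bound by the aryl hydrocarbon receptor and ARNT.
Slc1a2: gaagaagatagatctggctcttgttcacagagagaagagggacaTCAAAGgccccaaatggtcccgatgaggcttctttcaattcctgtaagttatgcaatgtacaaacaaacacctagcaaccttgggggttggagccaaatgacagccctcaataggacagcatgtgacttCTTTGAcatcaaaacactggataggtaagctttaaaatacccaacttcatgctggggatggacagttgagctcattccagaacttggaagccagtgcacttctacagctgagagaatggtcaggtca
Cyp2e1: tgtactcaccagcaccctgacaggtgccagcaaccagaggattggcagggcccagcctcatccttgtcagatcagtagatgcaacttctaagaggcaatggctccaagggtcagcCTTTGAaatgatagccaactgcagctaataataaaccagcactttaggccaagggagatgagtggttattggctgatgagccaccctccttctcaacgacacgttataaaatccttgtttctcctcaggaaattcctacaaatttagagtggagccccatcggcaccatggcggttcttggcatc
Hal: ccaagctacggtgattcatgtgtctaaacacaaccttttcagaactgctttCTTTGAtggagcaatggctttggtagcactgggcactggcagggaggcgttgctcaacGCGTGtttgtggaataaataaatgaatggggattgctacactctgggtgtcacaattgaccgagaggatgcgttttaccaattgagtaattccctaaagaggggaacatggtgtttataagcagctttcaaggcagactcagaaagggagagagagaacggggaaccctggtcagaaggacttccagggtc
Glul: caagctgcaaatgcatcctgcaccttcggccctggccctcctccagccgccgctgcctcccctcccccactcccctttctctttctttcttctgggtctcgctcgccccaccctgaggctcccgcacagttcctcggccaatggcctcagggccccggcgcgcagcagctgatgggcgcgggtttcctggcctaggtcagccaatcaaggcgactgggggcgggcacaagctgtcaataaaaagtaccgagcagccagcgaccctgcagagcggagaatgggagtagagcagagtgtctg

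The TCF/LEF core stood 206 and 77 bases before the start in Slc1a2, 135 bases before it in Cyp2e1, 199 bases before it in Hal and 243 bases before it in Cyp1a2. The core was held by 16.0% of 32544 promoters of this length. Oat, Axin2 and Glul did not hold it within these windows. GCGTG was found in Hal, and in 32.6% of all promoters. The TGACG core of the cAMP response element was found 34 bases after the start of Oat, and in 20.9% of all promoters. The STAT motif TTCNNNGAA was in none of the 7 and in 8.33% of all promoters. The motifs do not overlap in these windows. A match is a description of the letters, not of binding.

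Levels per kilobase of exon set the members apart over the 8 libraries. Cyp2e1, a cytochrome P450 that oxidises ethanol and paracetamol, was the highest at a mean of 2867 CPM per kb. Cyp1a2 (291 CPM per kb), Oat (266 CPM per kb) and Glul (224 CPM per kb) followed, with overlapping ranges. Gls2 (124 CPM per kb), Sds (97.4 CPM per kb) and Hal (59.0 CPM per kb) came next, again with overlapping ranges. Slc1a2 (11.7 CPM per kb), Cdh1 (4.38 CPM per kb) and Axin2 (0.790 CPM per kb) were the lowest, and no range of theirs overlapped that of its neighbour. Cdh1 varied most among the libraries, with its highest level 4.42 times its lowest. Cyp1a2 varied least at 1.42 times.

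**Figure D1:**
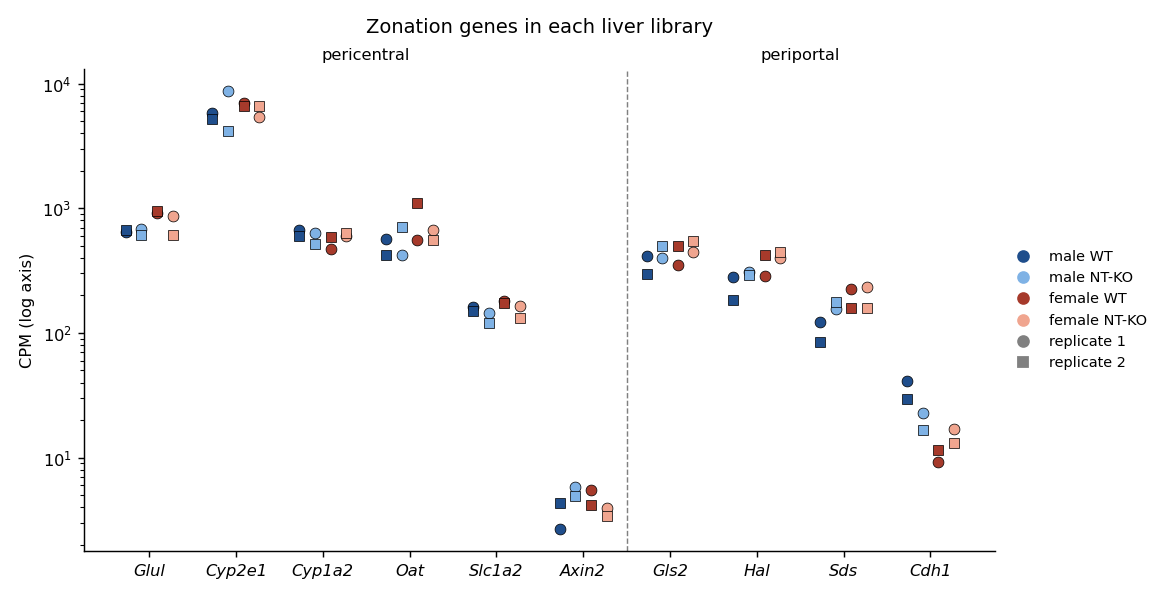
CPM (log axis) of the 10 zonation genes in each of the 8 liver libraries, coloured by group, with circles for replicate 1 and squares for replicate 2. Cdh1 runs from 40.8 CPM in male WT to 9.23 CPM in female WT, whereas the libraries of Cyp1a2 lie between 469 and 665 CPM.

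Whether loss of the LBR N-terminus changes zonation in males was read first. No member was called in male NT-KO vs WT by edgeR's quasi-likelihood test (FDR no higher than 0.05 with a log2 fold change beyond 1 in size), against 2 of 13117 genes tested (0.0152%). At an unadjusted p under 0.05 there were 2 members, Cdh1 and Sds, beside 11.5% of all genes. The NT-KO and WT libraries did not overlap in 5 of 10 members, beside 38.9% of all genes. The number of genes called depended on the test. It was 205 with edgeR's likelihood ratio test and 218 with DESeq2, still with no member among them.

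Among the pericentral genes in males, Glul, which makes glutamine from ammonia, stood at 640 and 666 CPM in WT livers, with 681 and 613 CPM in NT-KO livers. The groups overlapped, and the log2 fold change was -0.01 with a 95% interval of -0.50 to 0.48. Cyp2e1 stood at 5805 and 5166 CPM in WT livers, with 8715 and 4197 CPM in NT-KO livers. The NT-KO replicates of Cyp2e1 thus lay on either side of the WT replicates. Oat, which feeds ornithine carbon to glutamate, stood at 563 and 425 CPM in WT livers, with 421 and 707 CPM in NT-KO livers, again overlapping. Cyp1a2, a P450 induced through the aryl hydrocarbon receptor, had a log2 fold change of -0.14 with overlapping groups. Slc1a2, a glutamate importer, stood at 162 and 150 CPM in WT livers, with 145 and 120 CPM in NT-KO livers. Both NT-KO libraries were below both WT libraries, at a log2 fold change of -0.24 (95% interval -0.66 to 0.18). Axin2, a beta-catenin target that restrains the same pathway, stood at 2.67 and 4.34 CPM in WT livers, with 5.84 and 4.89 CPM in NT-KO livers. These groups did not overlap either, and the log2 fold change was 0.62 ± 0.285 (SE, edgeR FDR = 0.457, n = 2 per group). Axin2 rested on 140 to 279 counts per library, the fewest of the members.

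Among the periportal genes in males, Cdh1, the cell adhesion protein E-cadherin, stood at 40.8 and 29.3 CPM in WT livers, with 22.8 and 16.7 CPM in NT-KO livers. Its NT-KO libraries were both lower, at a log2 fold change of -0.83 ± 0.243 (SE, edgeR FDR = 0.284, n = 2 per group). With no filter on low counts the edgeR FDR of the same Cdh1 contrast was 0.0106, and over the other 16 alternatives no FDR passed the threshold. Sds, which deaminates serine, stood at 122 and 85.3 CPM in WT livers, with 156 and 176 CPM in NT-KO livers. Its groups did not overlap, at a log2 fold change of 0.67 ± 0.273 (SE, edgeR FDR = 0.402, n = 2 per group). Of the Sds exon bases, 29.6% lie under genes on the opposite strand, and the kit used does not keep strand. Plbd2, the protein-coding gene among them, had a log2 fold change of 0.12 in the same contrast. Hal, which opens histidine breakdown, stood at 282 and 183 CPM in WT livers, with 310 and 294 CPM in NT-KO livers, without overlap (log2 fold change 0.38). Gls2, the liver glutaminase, had a log2 fold change of 0.33 with overlapping groups.

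In females, no member was called in NT-KO vs WT, against 1 gene of all tested (0.00762%), and no member reached an unadjusted p under 0.05 by edgeR, beside 1.55% of all genes. The groups did not overlap in 6 of 10 members, beside 26.4% of all genes. Of these, Cyp1a2 and Cdh1 were higher in both NT-KO libraries (12.2% of all genes), and Glul, Cyp2e1, Slc1a2 and Axin2 were lower in both (14.2% of all genes). The members not overlapping on the lower side were all pericentral.

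Glul stood at 918 and 954 CPM in female WT livers, with 874 and 612 CPM in female NT-KO livers. Replicate 2 of NT-KO was far below the other 3 female libraries, and the log2 fold change was -0.33 (95% interval -0.82 to 0.16). Of the Glul exon sequence, 11.9% of 50-base stretches occur in other genes, mainly the pseudogene Glns-ps1. Cyp2e1 stood at 7009 and 6611 CPM in WT livers, with 5405 and 6586 CPM in NT-KO livers, where the nearest WT and NT-KO libraries were almost level. Slc1a2 stood at 179 and 175 CPM in WT livers, with 166 and 132 CPM in NT-KO livers, with the same log2 fold change as in males, -0.24 (95% interval -0.66 to 0.18). Axin2 stood at 5.53 and 4.18 CPM in WT livers, with 3.97 and 3.38 CPM in NT-KO livers, both lower, at a log2 fold change of -0.40 (95% interval -1.05 to 0.25). Oat stood at 561 and 1112 CPM in WT livers, with 672 and 559 CPM in NT-KO livers. Replicate 2 of WT set the Oat value of -0.44, which was 0.13 without it. Cyp1a2 stood at 469 and 585 CPM in WT livers, with 595 and 639 CPM in NT-KO livers, at a log2 fold change of 0.23.

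Of the periportal genes, Cdh1 stood at 9.23 and 11.5 CPM in female WT livers, with 16.8 and 13.0 CPM in female NT-KO livers. Both NT-KO libraries were higher, at a log2 fold change of 0.53 ± 0.244 (SE, edgeR FDR = 1.00, n = 2 per group). Gls2 stood at 350 and 498 CPM in WT livers, with 448 and 548 CPM in NT-KO livers, with overlap. Hal stood at 285 and 421 CPM in WT livers, with 400 and 444 CPM in NT-KO livers, also with overlap. The Sds groups had nearly the same mean, 192 ± 46.2 CPM for WT livers and 197 ± 52.9 CPM for NT-KO livers (SD, n = 2 each).

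**Figure D2:**
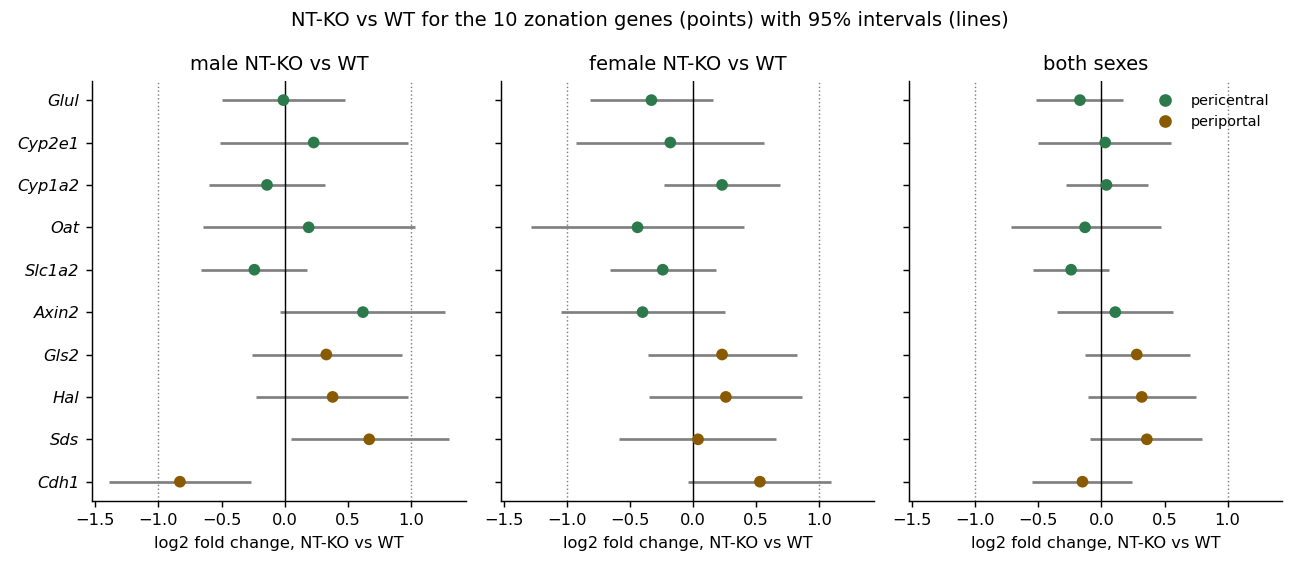
Log2 fold change, NT-KO vs WT, of each zonation gene by sex and over both sexes together, with the point as the edgeR estimate, the line as its 95% interval and dotted lines at a log2 fold change of 1 in each direction. Cdh1 lies at -0.83 in males and 0.53 in females, and over both sexes every interval lies inside the dotted lines.

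Over both sexes no member was called, against 2 of all genes (0.0152%), and no member had every NT-KO library on one side of every WT library (0.953% of all genes). None reached an unadjusted p under 0.05 by edgeR, beside 5.42% of all genes. The log2 fold changes ran from -0.24 for Slc1a2 to 0.36 for Sds. All 10 of the 95% intervals lay within a log2 fold change of 1, the lowest bound being -0.72 for Oat and the highest 0.80 for Sds. A change of that size common to both sexes thus lay outside the intervals, whereas in males 6 and in females 7 of the 10 intervals lay within it.

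The NT-KO effect was then compared between the sexes. No member was called, against 2 of all genes (0.0152%), and 2 members reached an unadjusted p under 0.05 by edgeR, beside 7.20% of all genes. For Cdh1 the female effect minus the male effect was 1.36 on the log2 scale (95% interval 0.56 to 2.15, edgeR FDR = 0.573). The FDR of this Cdh1 difference was 0.00242 with no filter on low counts, the lowest of its 16 alternatives and the only one past the threshold. For Axin2 the difference was -1.02 (95% interval -1.94 to -0.10, edgeR FDR = 0.660). In each of these genes the NT-KO libraries lay to one side of WT in males and to the opposite side in females, which held for 2 of 10 members and for 6.67% of all genes. For Slc1a2 the difference was 0.00, with a 95% interval of -0.60 to 0.59.

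To set the zones against each other, each gene was taken relative to its own mean log2 CPM over the 8 libraries, and the mean of the 4 periportal genes was subtracted from that of the 6 pericentral genes. This pericentral minus periportal value was 0.34 and 0.26 in the female WT livers, and -0.17 and -0.21 in the female NT-KO livers. Both female WT libraries were thus on the pericentral side and both female NT-KO libraries on the periportal side. In males the WT livers had values of -0.27 and 0.23, the NT-KO livers 0.02 and -0.19, and the WT replicates spanned the NT-KO replicates. Since the members were chosen with earlier results known, no test was made of this value. Without Cdh1 the group means were 0.07 for female WT livers and -0.34 for female NT-KO livers, so female NT-KO stayed below female WT. The same step moved the male WT mean from -0.02 to 0.33, above female WT, so the order of all 4 groups rested on Cdh1. Male NT-KO then lay below male WT on average, as in females, although the male libraries still overlapped. The contrast between the sexes in this value thus also rested on Cdh1. Over the 8 libraries Cdh1 ran against the other periportal genes, with Pearson's r of -0.367 for Gls2, -0.544 for Hal and -0.701 for Sds. The log2 CPM of Glul minus that of Gls2 overlapped in females, at 1.39 and 0.94 for WT livers and 0.96 and 0.16 for NT-KO livers.

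The wider zonal lists were also chosen with earlier results known, and their genes share the same libraries, so sign counts are a description only. In females most genes of each list leaned to the same side as the members of that zone, without a call. The list means did not separate the groups. Of 29 wider pericentral genes, 22 had negative log2 fold changes (median -0.09), and of 31 wider periportal genes, 23 had positive ones (median 0.14), beside a median of 0.0012 and 50.3% positive over all genes. The smallest p values of the wider periportal list in females were those of Apoa4, a lipoprotein component (0.69), the protease Ctsc (0.43) and G6pc, the last enzyme of glucose release (0.67), and that of the wider pericentral list was Rhbg, an ammonia channel (-0.39). In males 23 of the 29 wider pericentral genes had positive values (median 0.14, beside 51.6% positive over all genes), the opposite side from females. Of the 31 wider periportal genes 18 had positive values in males (median 0.03), the same side as in females. None of these genes was called in either sex. In the plot of zone means the wider pericentral list of female WT replicate 1 (0.07) lay below both NT-KO libraries (0.12 and 0.10) and replicate 2 (0.37) above them, so these groups overlapped. The wider periportal list overlapped too, at 0.11 and 0.14 for WT livers and 0.35 and 0.10 for NT-KO livers. The difference of the wider lists, pericentral minus periportal, was -0.04 and 0.23 for female WT livers and -0.23 and 0.00 for female NT-KO livers, again with overlap.

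**Figure D3:**
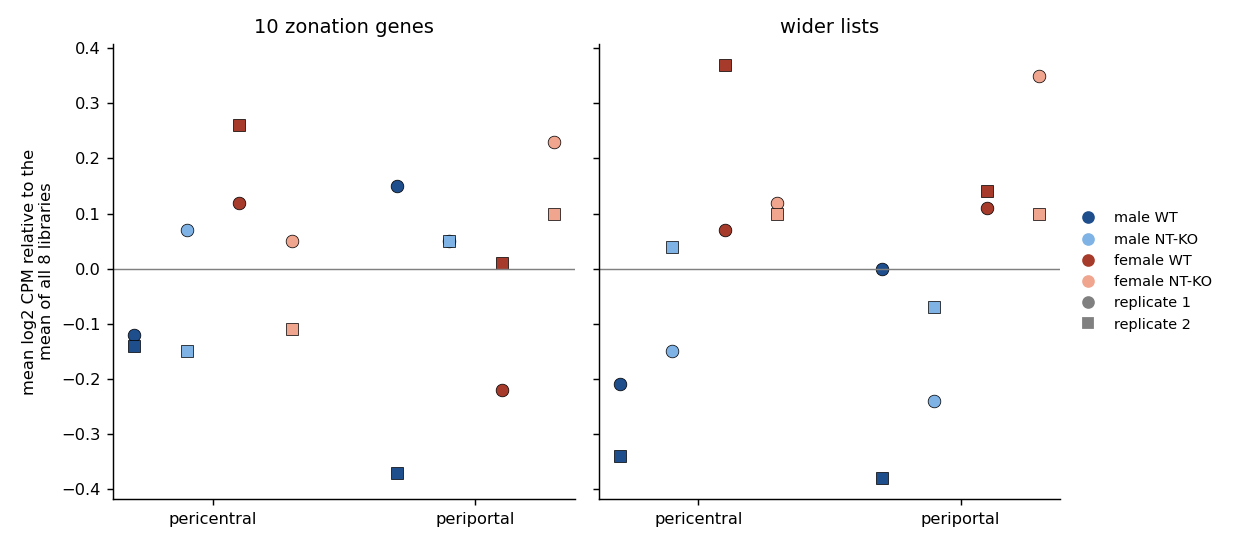
Mean log2 CPM relative to the mean of all 8 libraries, for the pericentral and periportal members (left) and for the wider lists of 29 and 31 genes (right), 1 point per library, coloured by group. For the members, female WT lies at 0.12 and 0.26 in the pericentral genes and -0.22 and 0.01 in the periportal genes, and female NT-KO at 0.05 and -0.11 and at 0.23 and 0.10. The periportal member points of male NT-KO coincide at 0.05.

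The clearest difference among the members was between the sexes. Of the 10, Cdh1 alone was called in female vs male over both genotypes (edgeR FDR of at most 0.05), against 1028 of 13117 genes (7.84%). Its 4 female libraries stood at 9.23, 11.5, 16.8 and 13.0 CPM and its 4 male libraries at 40.8, 29.3, 22.8 and 16.7 CPM. Cdh1 fell by 1.08 on the log2 scale in females, 2.12-fold (SE 0.173, 95% interval -1.48 to -0.68, edgeR FDR = 0.00883). The highest female and the lowest male library, both NT-KO, were almost level, so the sexes overlapped narrowly. By the exact two-sided permutation test of 4 against 4 libraries, p was 0.0571, where the smallest possible is 0.0286. Within WT, Cdh1 was 3.39-fold lower in females (edgeR FDR = 0.00888, n = 2 per group). Within NT-KO it was 1.32-fold lower and not called (edgeR FDR = 0.715, n = 2 per group). The call held without any 1 of the libraries, at edgeR FDR values of 0.00982 to 0.0408.

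No other member passed in the sex comparison, and no member separated all female from all male libraries (16.1% of all genes did). Sds had a log2 fold change of 0.57 (edgeR FDR = 0.108) and Hal 0.54 (edgeR FDR = 0.113), both higher in females. Both passed with DESeq2 and with no filter on low counts, and Hal also with library size scaling alone. Glul was 0.36 higher on the log2 scale (edgeR FDR = 0.171), with 3 of 4 female libraries above every male library. The remaining 6 members lay between -0.07 for Cyp1a2 and 0.44 for Oat.

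Markers of other cells that carry E-cadherin were read beside Cdh1. The 8 cholangiocyte markers, of which 7 were tested, summed to 55.7 to 63.4 CPM in male WT livers, 42.7 to 45.0 CPM in male NT-KO livers, 54.6 to 64.4 CPM in female WT livers and 45.4 to 74.3 CPM in female NT-KO livers. None was at 0 in every library. Their median log2 fold change, female vs male, was 0.48, opposite in sign to Cdh1. Of the single markers, Epcam was higher in females (log2 fold change 1.12, edgeR FDR = 0.0377) and Sox9 had a value of -1.18 (edgeR FDR = 0.0518). In the male contrast the marker sum was lower in NT-KO, as Cdh1 was. Spp1, the largest part of this sum, stood at 40.0 and 46.9 CPM in WT livers, with 24.1 and 27.9 CPM in NT-KO livers. Of the 7 tested markers 5 had positive values in this contrast (median 0.11). The groups did not overlap in 1 of the 7, Spp1, beside 38.9% of all genes. The part of cholangiocytes in the Cdh1 values was not tested.

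**Figure D4:**
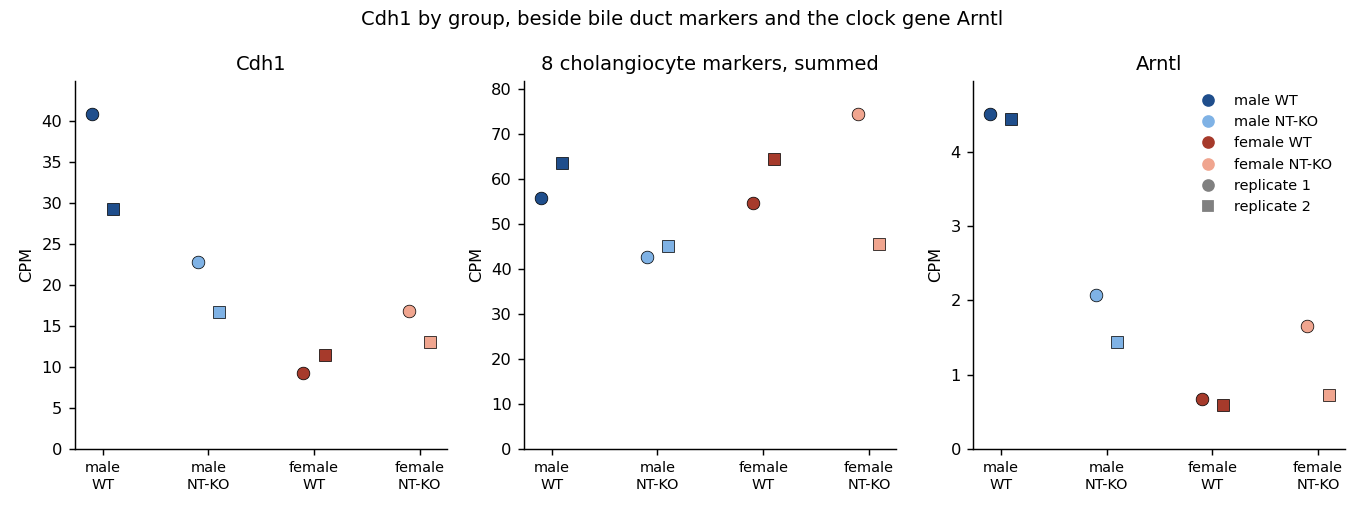
CPM of Cdh1, of 8 cholangiocyte markers summed and of Arntl in each library, by group, with circles for replicate 1 and squares for replicate 2. Cdh1 and Arntl are both highest in male WT and lowest in female WT. The marker sums of female WT (54.6 and 64.4 CPM) lie just outside those of male WT (55.7 and 63.4 CPM), 1 on either side.

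Some clock genes differed between the groups, although none was called for NT-KO vs WT in either sex. Arntl, the core activator of the circadian clock, stood at 4.51 and 4.45 CPM in male WT livers, 2.07 and 1.44 CPM in male NT-KO livers, 0.673 and 0.589 CPM in female WT livers, with 1.65 and 0.729 CPM in female NT-KO livers. That is the order of group means seen for Cdh1 (35.1, 19.7, 10.3 and 14.9 CPM). The share of all genes with this order was not counted. Not every clock gene had it, as Cry1 stood at 10.1 and 10.6 CPM in male NT-KO livers, with 13.5 and 11.5 CPM in female NT-KO livers. Arntl was lower in females (log2 fold change -1.70, edgeR FDR = 0.0110), as was its partner Clock (-0.90, edgeR FDR = 0.00879), while Per3, a clock repressor, was higher (0.82, edgeR FDR = 0.00184). Of 11 clock genes tested, 7 reached an unadjusted p under 0.05 in males and none in females for NT-KO vs WT by edgeR, beside 11.5% and 1.55% of all genes. The 3 called by sex stand beside 7.84% of all genes. Hour of collection is not given in the sources used here, and the part of the clock in the Cdh1 values was not tested. Red blood cell markers summed to 480 to 1030 CPM in male WT livers, 401 to 403 CPM in male NT-KO livers, 195 to 201 CPM in female WT livers and 184 to 347 CPM in female NT-KO livers. They were thus also highest in male WT, and their part was not tested either.

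Genes of the pathways around the members were read by counts. Of 35 tested Wnt and beta-catenin genes, none was called in NT-KO vs WT in either sex, and 1 was called by sex (beside 7.84% of all genes), the cell cycle gene Ccnd1 (log2 fold change 1.66, higher in females, edgeR FDR = 0.00195). In males the smallest p values were those of Nkd1, a Wnt feedback inhibitor (0.72), and the Wnt receptors Fzd7 (-0.88) and Fzd6 (1.01), and in females those of the transcription factor Tcf7 (-0.48), the ligand Rspo3 (-0.28) and Fzd7 (0.38). The markers of sinusoidal and central vein endothelium, the source of these ligands, summed to 108 to 154 CPM in male WT livers, 148 to 161 CPM in male NT-KO livers, 186 to 189 CPM in female WT livers and 167 to 185 CPM in female NT-KO livers. B lymphocyte markers summed to 4.12 to 7.09, 9.78 to 55.2, 22.8 to 23.6 and 8.69 to 12.8 CPM in the same order of groups. As for Axin2, both sums were higher in male NT-KO than male WT and lower in female NT-KO than female WT, except that the endothelial sums of the male groups overlapped. Their part in the Axin2 values was not tested.

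Of 23 genes of glutamine, ammonia and urea metabolism, which include Glul, Gls2, Oat and Slc1a2, none was called in any comparison. Rhbg had the smallest p in males (-0.92, edgeR FDR = 0.303). Of 28 tested genes of amino acid breakdown, none was called by genotype, and 2 were higher in females, Agxt, which detoxifies glyoxylate (0.80), and Hpd of tyrosine breakdown (0.66). Amdhd1, which acts after Hal in histidine breakdown, had a log2 fold change of 0.55 in males (edgeR FDR = 0.402). Of 11 adherens junction genes Cdh1 was the only call, by sex, and Nectin2 had the smallest p among the others in males (-0.66). Of 6 tested genes of the aryl hydrocarbon receptor and Cyp1 group, which includes Cyp1a2, Nqo1 was called by sex (1.76). Of the 29 wider pericentral genes 4 were called higher in females, Aldh3a2 (1.41), Lect2 (0.70), Cyp2a5 (1.27) and Cyp2c37 (2.05), and of the 31 wider periportal genes 2 were, Ctsc (0.90) and Apoa4 (1.28). These counts, with the 2 of 28 and 1 of 6 above, stand beside 7.84% of all genes called by sex. The few calls by sex in the 2 wider zonal lists were all towards females, as were 540 of the 1028 calls over all genes. With shares this near that of all genes, their direction is a description only. Cdh1 was lower in females.

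The genes most like each member over the 8 libraries, by Pearson's r of log2 CPM, were searched among all tested genes, and with so few libraries in 4 groups such values are a description only. For Glul these were Pdzrn3 (r = 0.982) and Neurl4 (r = 0.971), and for Cdh1 they were Pde9a (r = 0.980) and Jmjd4 (r = 0.977). For Hal they were Pgm1 (r = 0.983) and Asrgl1 (r = 0.978), and for Gls2 they were Vps35l (r = 0.979) and Rab3d (r = 0.978). No other member was among the 2 nearest genes of any member, which does not show that members vary apart. Between pericentral members r ran from -0.631 (Cyp1a2 and Axin2) to 0.827 (Glul and Slc1a2). Between periportal members it ran from -0.701 (Sds and Cdh1) to 0.862 (Gls2 and Hal).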

How the data were processed

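RNA-seq libraries of 8 mouse livers (2 per sex and genotype) were analysed from the counts per gene that the authors deposited. The authors trimmed reads with cutadapt, aligned them to GRCm38 with STAR 2.6.1a and counted them with featureCounts, without normalization. The kit (TruSeq RNA) does not keep strand, and the counting's strand and multi-mapping settings are not given in the sources used here. Of 49671 gene IDs, 49412 matched GENCODE M21 names, and 19172 had no count.

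A gene was kept (13117 were) where 2 or more libraries reached 1 CPM, and rRNA, miRNA and mitochondrial genes were dropped. Library sizes were scaled by TMM, and edgeR 4.0.16 (R 4.3.3) quasi-likelihood tests were fitted to all 8 libraries with 4 group means. The Benjamini-Hochberg adjustment ran over all tested genes. Calls needed an FDR of at most 0.05 and, for NT-KO vs WT, an absolute log2 fold change over 1. Standard errors were the log2 fold change over the square root of F, and intervals are 95%. Log2 CPM used a prior count of 2. CPM values given for genes were scaled to the tested counts times the TMM factor. The floor of 3 counts equals 0.0466 to 0.0666 CPM of the library total, a different scale, and covers counting error only. Sex was also compared by exact permutation (scipy 1.17.1). The code was tested on simulated data, with the common variation given to every gene. At an FDR of at most 0.05, 27 of 98 simulated 2-fold changes were recovered in male NT-KO vs WT. In female vs male over both genotypes 76 of 95 were, so the male contrast missed most changes of this size. Alternatives were DESeq2 1.42.0, edgeR's likelihood ratio test, other scalings, filters and dispersions, a replicate block and leaving out each library. Exons shared with other genes were found on the annotation. Same-numbered libraries deviated with correlations of -0.181 to 0.209, so the numbers were not taken to pair them.

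The named genes were all members, Lbr, up to 4 called genes of each list and comparison (or up to 3 by smallest p where none passed) and the 2 genes nearest to a member. Epcam, Sox9 and Spp1 were named after their values were seen. Members and lists were chosen with earlier results of these data known.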

Additional observations from a re-analysis of the deposited data

Results flagged for a closer look

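In 11 of 58 genes (the members and the genes named from the lists, the latter for their small p values), both NT-KO libraries lay to one side of both WT libraries in males and to the opposite side in females. The same pattern was found in 875 of 13117 genes tested (6.67%), and naming by p favours it. The difference between the sexes (female effect minus male effect, log2 scale) was tested by edgeR's interaction term, and none passed, at FDR values of 0.573 to 0.757. Among the members it was 1.36 for Cdh1 and -1.02 for Axin2. Among clock genes it was 2.26 for Arntl, 0.86 for Clock and -0.66 for Per3. Among Wnt pathway genes it was 1.26 for the receptor Fzd7, -0.60 for the ligand Rspo3 and -0.92 for the transcription factor Tcf7. It was 1.20 for Gldc of glycine breakdown, -0.43 for the aryl hydrocarbon receptor gene Ahr and 0.79 for its target Tiparp.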

How the results depend on the processing

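Over 840 alternatives of the 50 member values, 799 kept their direction and their side of the threshold, and 33 changed sign, in 15 values that were not called. Values that rounded to 0.00 were counted as keeping their direction. Slc1a2, at 0.00 for the difference between the sexes, is therefore not among those 15, although its alternatives ran from -0.18 to 0.15. Over all genes, calls in males were 205 with edgeR's likelihood ratio test and 218 with DESeq2, against 2. In females they were 11 and 5, against 1. The count of called members stayed at 0 for the 3 genotype comparisons under the alternatives run for the count. For the difference between the sexes it was 1 (Cdh1) with no filter on low counts, where 552 rather than 2 of all genes were called. For female vs male it was 3 with DESeq2 (1849 genes called), 2 with library size scaling only and 3 with no filter (2722), against 1 (1028). It was 0 for the contrast of the sexes within NT-KO (244 genes called), where the fit still used all 8 libraries. With the replicate block, which changed no member's call, Cdh1 was -1.06 by sex (edgeR FDR = 0.0101). Of 80 alternatives of the group means of log2 CPM, 5 moved by more than the replicate SD. The cause of these differences was not tested.

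With 1 library left out, which leaves a lone library assumed to vary like the others, these log2 values changed sign. In males Glul ran from -0.09 to 0.06, Cyp2e1 from -0.39 to 0.66 and Oat from -0.23 to 0.52. In females Oat ran from -0.85 to 0.13 and Sds from -0.27 to 0.31. Over both sexes Cyp2e1 ran from -0.28 to 0.24, Cyp1a2 from -0.03 to 0.13, Oat from -0.33 to 0.16 and Axin2 from -0.05 to 0.30. For the difference between the sexes Cyp2e1 ran from -0.84 to 0.20, Gls2 from -0.34 to 0.17 and Hal from -0.45 to 0.19. Slc1a2, at 0.00 in the main fit, ran from -0.18 to 0.15 for the same difference. By sex Cyp2e1 ran from -0.11 to 0.41 and Axin2 from -0.19 to 0.16. With library size scaling only, Glul was 0.05 in males, and by sex Cyp1a2 was 0.06 and Axin2 0.10. By sex within NT-KO Cyp2e1 was -0.11 and Cyp1a2 0.11, and within WT Axin2 was 0.47. The pericentral minus periportal value, with each member left out, ran from 0.07 to 0.42 in female WT and from -0.34 to -0.11 in female NT-KO. With 2 libraries per group, changes of the size seen in most members lie within the intervals, and Axin2 has the fewest counts.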
